A study of Mus musculus with 20 samples.

Results

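Siglecs are receptors that read sialic acid on the surface of cells, and most of them carry inhibitory motifs. The 8 genes described here encode 5 mouse Siglecs (Cd33, Cd22, Siglec1, Siglece and Siglecf) and 3 other surface receptors that hold myeloid cells in check (Sirpa, Cd200r1 and Pilra). They were taken by symbol from the 21315 gene symbols listed in 20 RNA-seq libraries of mouse microglia, all 8 were found in every library, and all 8 passed the filter on low values in every comparison. The study compared microglia of WT mice, of APP-KI mice (the APP NL-G-F knockin, which carries a humanized Aβ sequence with the Swedish, Iberian and Arctic mutations), of C3aRKO mice, a knockout line backcrossed to C57BL/6J that lacks the complement receptor C3aR, and of APP-KI;C3aRKO mice. Of these unselected groups, WT, APP-KI and C3aRKO had 3 libraries each and APP-KI;C3aRKO had 5. A further 3 WT C3aR+ and 3 APP-KI C3aR+ libraries came from mice with a Td-tomato reporter in the C3ar1 gene, whose cells were further selected on Td-tomato; microglia of every group were isolated by flow cytometry as CD45mid CD11b+ cells, per the study's methods, and the groups without the Td-tomato selection are called unselected. All mice were 9 months old and labelled C57BL/6, animals of both sexes were used, and neither genotype is restricted to microglia. The labels do not say that libraries of a group came from separate animals, so p-values measure the spread between libraries, which may be technical.

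By way of background, many but not all inhibitory receptors of this kind recruit the phosphatases encoded by Ptpn6 and Ptpn11 when they meet their ligands. In this way they dampen signals from activating receptors, many of which use the adaptor encoded by Tyrobp. CD33 is known as a genetic risk factor for Alzheimer's disease in humans. CD22 is best known as a brake on the B cell receptor and is also made by microglia of old mice. Siglec-E, encoded by Siglece, is an inhibitory Siglec of mouse neutrophils, macrophages and microglia, and Siglec-F, encoded by Siglecf, is used as a marker of eosinophils and alveolar macrophages. Sialoadhesin, encoded by Siglec1, has no inhibitory motif and marks macrophages at the borders of the brain. SIRPα binds CD47, the signal that protects healthy cells from being eaten, CD200R1 binds CD200, and PILRα binds sialylated proteins such as the product of Pianp.

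Values below are scaled values: the deposited number is a gene's read count divided by the 75th percentile of the counts in its library, with no division by gene length, and it was multiplied by the same constant, 35.2, in every library. Libraries held 13939559 to 76608464 reads, and 1 read was worth a scaled value of 0.0132 to 0.0786. The members were covered by 179 reads (Cd200r1) to 288367 reads (Sirpa) in a library. In the unselected microglia, C3ar1 had a scaled value of 276 to 340 in WT and 165 to 388 in APP-KI, against 39.9 to 68.1 in C3aRKO and 61.9 to 80.4 in APP-KI;C3aRKO. The libraries labelled WT C3aR+ held C3ar1 at 37.6, 71.0 and 81.2, close to the C3aRKO libraries and below every WT library, which goes against their label, while those labelled APP-KI C3aR+ held it at 201, 251 and 383. Every direction given below for the C3aR+ cells rests on these labels. All 10 microglia markers were present in every library, with a summed scaled value of 10076 to 31687. The lowest sums were those of APP-KI;C3aRKO 1 (10076) and APP-KI 4 (11666), and every other library was at 17862 or more. By the number of genes without a read, 5 libraries stood apart: APP-KI 4 (8067 genes), C3aRKO 1 (8614), C3aRKO 2 (8261) and APP-KI;C3aRKO 1 (8929) had more than all others, and APP-KI 5 (105) had fewer. The libraries also fall into 3 series by their library numbers: all C3aR+ libraries are in series 1, and each unselected group has libraries in both series 2 and series 3.

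Cd33, Siglece and Siglecf lie near each other on chromosome 7 of GRCm38. In the GENCODE annotation Siglecf (ENSMUSG00000039013.16) occupies bases 43351341 to 43359531 (plus strand), Cd33 (ENSMUSG00000004609.11) bases 43524216 to 43544428 and Siglece (ENSMUSG00000030474.9) bases 43651070 to 43660161 (both minus strand). The 3 genes span 309 kb, with 9 protein-coding genes between Siglecf and Cd33 and 4 between Cd33 and Siglece. Cd22 (ENSMUSG00000030577.14) lies elsewhere on chromosome 7 (30865402 to 30880342, minus strand). Siglec1 (2, 131069220 to 131086765, minus strand) and Sirpa (2, 129592835 to 129632228, plus strand) share chromosome 2, Cd200r1 lies on chromosome 16 (44765736 to 44794978, plus strand) and Pilra on chromosome 5 (137821952 to 137836281, minus strand). An antisense gene overlaps Cd22 and Zcwpw1 overlaps Pilra on the opposite strand, and whether reads were counted by strand is not given in the sources used here, so reads of these pairs cannot be told apart. Sirpa, Cd200r1 and Pilra have relatives of like sequence (the Sirpb1, Cd200r and Pilrb genes) with which reads could be shared, and their values carry that uncertainty. Siglece and Siglecf, the 2 members that did not overlap between libraries with and without the APP-KI allele, are shown by the 250 bases before their start sites in RefSeq (GRCm38.p6). Siglece is at chr7:43660162-43660411 on the minus strand and Siglecf at chr7:43351091-43351340 on the plus strand. Capitals mark GAGGAA or its reverse complement TTCCTC, the core bound by the myeloid factor PU.1.
Siglece: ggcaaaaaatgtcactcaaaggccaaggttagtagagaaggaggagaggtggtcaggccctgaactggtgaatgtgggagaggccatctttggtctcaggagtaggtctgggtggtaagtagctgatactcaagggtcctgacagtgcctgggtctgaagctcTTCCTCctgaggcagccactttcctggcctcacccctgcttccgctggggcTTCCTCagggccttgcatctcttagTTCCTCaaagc
Siglecf: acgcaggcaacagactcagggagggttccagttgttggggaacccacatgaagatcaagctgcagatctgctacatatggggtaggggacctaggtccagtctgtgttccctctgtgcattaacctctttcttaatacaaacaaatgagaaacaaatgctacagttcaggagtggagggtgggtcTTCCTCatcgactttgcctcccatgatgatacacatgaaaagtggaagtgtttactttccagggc
These letters occurred 3 times in the Siglece window and 1 time in the Siglecf window, and 23.3% of the 32851 RefSeq promoter windows of this length held them. Windows were available for 5 of the 8 members: Cd33 and Pilra held 1 match each and Cd22 held 0. The windows of Cd33 (43533172 to 43533421) and Cd22 (30879029 to 30879278) lie within the GENCODE bounds given above, not before them. The letters ACGTG, to which HIF-1α binds, and the letters TGANTCA of AP-1 were in none of the 5 windows on either strand. They were in 16.6% and 6.75% of all windows. The motifs were chosen after the values were seen.

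To compare the members with each other, scaled values were divided by the length of their annotated exons. In WT, Sirpa was the most abundant at 649 per kb, followed by Cd33 at 107, Siglece at 36.5, Siglecf at 20.4 and Siglec1 at 10.6 per kb. Pilra (7.29 per kb), Cd200r1 (5.22 per kb) and Cd22 (4.69 per kb) were the lowest. The libraries of Siglec1 (5.00 to 13.6 per kb) overlapped those of Pilra and of both genes below it, and Cd200r1 and Cd22 overlapped each other. In APP-KI, Sirpa (616 per kb) and Cd33 (58.3 per kb) were again the highest levels, Siglecf (39.6 per kb) and Cd22 (10.8 per kb) stood above Siglece (8.16 per kb), and Siglec1 (3.34 per kb) was the lowest, with libraries that overlapped those of Cd200r1 (4.35 per kb). Cd22 and Siglece overlapped between libraries there (5.60 to 14.2 and 2.14 to 12.1 per kb).

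In the libraries labelled APP-KI C3aR+ against those labelled WT C3aR+, 5 of the 8 members changed: Cd22, Siglecf and Sirpa rose and Cd33 and Siglece fell (limma on log2(scaled value + 1), Benjamini-Hochberg adjusted p under 0.05 over all genes). Of all 12312 genes tested, 22.7% were called, 13% higher and 9.7% lower. The libraries of 6 members did not overlap, 4 higher and 2 lower, against 43.5% of all genes (17.8% higher and 25.7% lower). Scaling by median ratios shifted the median of all genes from -0.17 to -0.04 on the log2 scale and the calls from 1602 higher and 1194 lower to 1832 and 643; the 5 members kept their direction and their call. In unselected APP-KI against WT, Siglecf rose and Cd33, Siglec1 and Siglece fell, 4 of 8 members where 4.14% of 12407 genes were called (2.22% higher and 1.93% lower). These 4 members did not overlap between the groups, against 29.3% of all genes (12.8% higher and 16.4% lower). Between APP-KI;C3aRKO and C3aRKO, Siglecf rose and no other member was called, where 6.93% of genes were called (3.96% higher and 2.97% lower). Siglecf was higher and Siglec1 and Siglece lower without overlap, against 13.7% of all genes (6.34% higher and 7.34% lower). The median log2 fold change of the 8 members was 0.45, -0.18 and -0.37 in these comparisons, beside -0.17, -0.01 and -0.03 for all genes tested. The groups of these 3 comparisons share no library. The 2 unselected comparisons, however, come from 1 fit of 14 libraries with a common estimate of the spread and a common series term. They are therefore not independent of each other. On the recovered reads, edgeR called 5, 3 and 1 members in the 3 comparisons, where it called 19.7%, 3.3% and 5.28% of all genes. DESeq2 called 6, 5 and 2, where it called 25.8%, 5.81% and 9.21%.

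**Figure D1:**
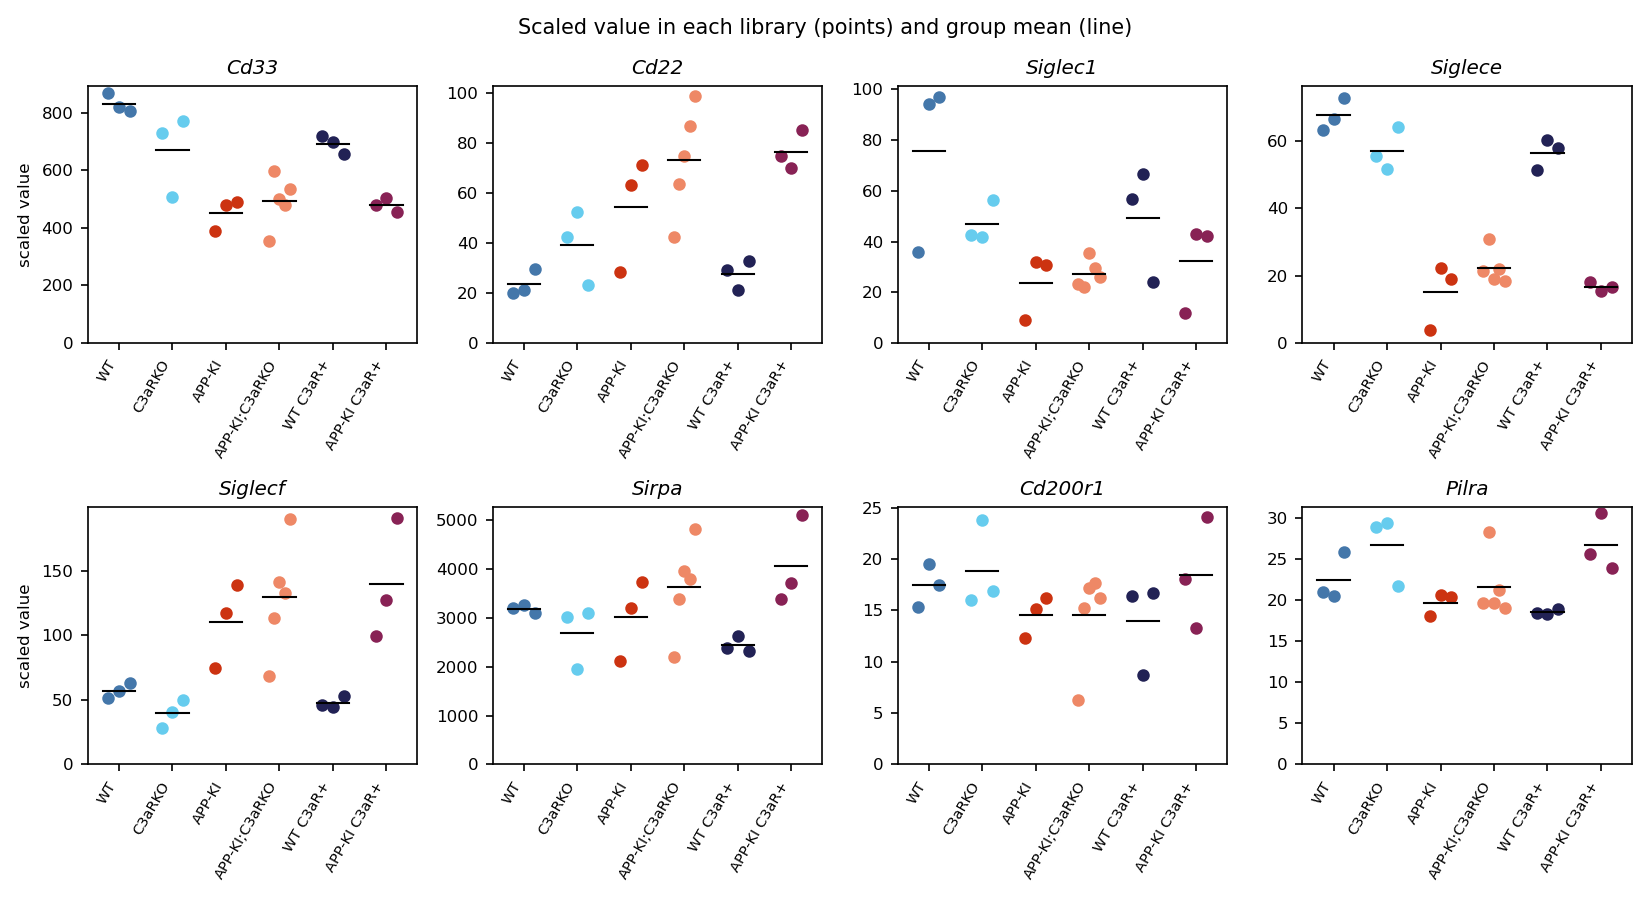
Each panel plots one gene, with the scaled value (read count over the library's 75th percentile, times a constant; linear axis from 0) against the 6 groups; points are libraries and lines are group means. Siglece lies between 3.96 and 31.0 in the 11 libraries with the APP-KI allele and between 51.2 and 72.8 in the 9 without it, Siglecf lies higher in the 11 (68.7 to 191) than in the 9 (28.2 to 63.2), and the other 6 genes overlap between these sets.

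Siglece, the inhibitory Siglec-E, had the largest difference of the 8 members in the C3aR+ cells and in APP-KI against WT. Its scaled value was 63.3, 66.5 and 72.8 in WT and 55.5, 51.6 and 64.2 in C3aRKO. It was 3.96, 22.3 and 19.0 in APP-KI and 21.2, 31.0, 19.0, 22.0 and 18.5 in APP-KI;C3aRKO. All APP-KI libraries were thus below all libraries of mice without the allele, and APP-KI 4, which rests on 188 reads of the gene and is one of the libraries that stood apart, was the lowest. The C3aR+ libraries were at 51.2, 60.3 and 57.9 (those labelled WT C3aR+) and 18.0, 15.4 and 16.7 (APP-KI C3aR+). Siglece fell by 1.70 on the log2 scale in the C3aR+ comparison (SE 0.18, limma adjusted p = 0.00028) and the difference was -2.33 in unselected APP-KI against WT (SE 0.44, limma adjusted p = 0.0067). Without APP-KI 4 the latter difference was -1.68 (limma adjusted p = 0.0014), and without WT 4 it was -2.33 and no longer called (limma adjusted p = 0.052). Against C3aRKO, APP-KI;C3aRKO was lower by a log2 fold change of -1.37 (SE 0.39), which missed the threshold (limma adjusted p = 0.051), although the groups did not overlap; without APP-KI;C3aRKO 2 it was -1.57 and called (limma adjusted p = 0.039).

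Siglecf, the eosinophil and alveolar macrophage Siglec, moved the opposite way. Its scaled value was 51.3, 56.5 and 63.2 in WT and 28.2, 40.4 and 50.2 in C3aRKO. It was 74.9, 117 and 139 in APP-KI and 68.7, 113, 141, 133 and 190 in APP-KI;C3aRKO. The lowest APP-KI library still lay above the highest WT library, and the 2 lowest values of the APP-KI groups came from APP-KI 4 and APP-KI;C3aRKO 1, both among the libraries that stood apart. In the C3aR+ cells it was 45.7, 44.6 and 52.8 in the libraries labelled WT C3aR+ and 99.8, 127 and 191 in APP-KI C3aR+. Siglecf rose in all 3 comparisons: by a log2 fold change of 1.48 in the C3aR+ cells (SE 0.21, limma adjusted p = 0.0013), 1.09 in APP-KI against WT (SE 0.24, limma adjusted p = 0.018) and 1.49 in APP-KI;C3aRKO against C3aRKO (SE 0.22, limma adjusted p = 0.00054). The last call was kept without each of the 8 libraries in turn; the APP-KI against WT call was kept without WT 4 (1.27) or APP-KI 4 (1.24) and lost without any of the other 4 libraries (0.94 to 1.10) or without the library series term (0.90, limma adjusted p = 0.20). Within a library, Siglecf had 0.508 to 0.911 reads per read of Siglece in the libraries without the APP-KI allele and 3.24 to 18.9 in those with it. These 2 genes were paired because their scaled values had separated in opposite directions. The ratio therefore had to separate as well, and it is a description, not a further test. Of all genes, 5.03% of 12374 did not overlap between the 11 libraries with the allele and the 9 without, 2.68% higher and 2.35% lower.

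Cd33 was the most abundant of the 5 member Siglecs in every group. Its scaled value was 868, 819 and 808 in WT, 732, 506 and 772 in C3aRKO, and 718, 699 and 656 in the libraries labelled WT C3aR+. It was 390, 479 and 490 in APP-KI, 354, 599, 501, 478 and 534 in APP-KI;C3aRKO, and 479, 506 and 456 in APP-KI C3aR+. The APP-KI libraries were all below the WT libraries of the same selection, and the overlap of the knockout groups came from C3aRKO 2, a library that stood apart. Cd33 fell by 0.52 on the log2 scale in the C3aR+ comparison (SE 0.11, limma adjusted p = 0.0079) and by 0.84 in APP-KI against WT (SE 0.20, limma adjusted p = 0.031). The C3aR+ call was kept without each of the 6 libraries. The unselected call was kept only without APP-KI 5 (-0.90) and lost without any of the other 5 (-0.72 to -0.88). The difference of APP-KI;C3aRKO from C3aRKO was -0.47 (SE 0.18, limma adjusted p = 0.15).

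Cd22, the B cell Siglec, was low in WT, with scaled values of 20.1, 21.3 and 29.6, and in the libraries labelled WT C3aR+, with 29.4, 21.0 and 33.0. In APP-KI C3aR+ it was 74.7, 70.2 and 85.2, above every library labelled WT C3aR+. In the unselected groups it was 28.2, 63.4 and 71.5 in APP-KI, 42.3, 52.6 and 23.1 in C3aRKO, and 42.3, 63.8, 74.8, 87.1 and 99.0 in APP-KI;C3aRKO. These groups overlapped: APP-KI 4 was in the WT range, and C3aRKO 1 and C3aRKO 2 were above it. Cd22 rose by a log2 fold change of 1.45 in the C3aR+ comparison (SE 0.19, limma adjusted p = 0.00082), a call kept without each of the 6 libraries. In APP-KI against WT the difference was 1.18 (SE 0.38, limma adjusted p = 0.13) and in APP-KI;C3aRKO against C3aRKO 0.83 (SE 0.34, limma adjusted p = 0.18). Without APP-KI 4 the former was 1.52 and called (limma adjusted p = 0.042), and without C3aRKO 3 the latter was 0.20.

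Siglec1, the border macrophage Siglec without an inhibitory motif, varied widely within groups. Its scaled value was 35.7, 94.4 and 96.9 in WT and 42.8, 42.0 and 56.2 in C3aRKO. It was 8.94, 31.9 and 30.7 in APP-KI and 23.3, 21.9, 35.3, 29.5 and 25.9 in APP-KI;C3aRKO. WT 4 was close to the APP-KI range and APP-KI 4 far below the other APP-KI libraries. Siglec1 fell by 1.45 on the log2 scale in APP-KI against WT (SE 0.36, limma adjusted p = 0.035; edgeR adjusted p = 0.077). This call was kept without WT 4 (-1.81) or APP-KI 5 (-1.84) and lost without WT 5, WT 6, APP-KI 4 or APP-KI 6 (-1.03 to -1.51). The difference of APP-KI;C3aRKO from C3aRKO was -0.96 (SE 0.32, limma adjusted p = 0.095) with no overlap. The C3aR+ libraries overlapped, at 56.7, 66.7 and 24.0 in the libraries labelled WT C3aR+ and 11.7, 42.9 and 42.1 in APP-KI C3aR+, and the difference of -0.67 had an interval from -1.80 to 0.45.

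Sirpa, the receptor for CD47, was the most abundant member. Its scaled value was 2383, 2627 and 2322 in the libraries labelled WT C3aR+ and 3376, 3707 and 5101 in APP-KI C3aR+, with no overlap. In the unselected groups it was 3192, 3258 and 3106 in WT, 2122, 3209 and 3739 in APP-KI, 3025, 1959 and 3103 in C3aRKO, and 2202, 3390, 3969, 3800 and 4820 in APP-KI;C3aRKO. These groups overlapped, except that all 3 C3aRKO libraries were below WT, 2 of them by little; the lowest value of each of the last 3 groups was in a library that stood apart. Sirpa rose by a log2 fold change of 0.71 in the C3aR+ comparison (SE 0.20, limma adjusted p = 0.028). That call was kept without APP-KI C3aR+ 1 (0.83) or APP-KI C3aR+ 3 (0.54) and lost without any of the other 4 libraries (0.68 to 0.77). In APP-KI against WT the difference was 0.02 with an interval from -0.58 to 0.62, and in APP-KI;C3aRKO against C3aRKO 0.31 with an interval from -0.23 to 0.84.

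Cd200r1 and Pilra were called in no comparison. Cd200r1, the receptor for CD200, had scaled values from 6.29 to 24.1 over all 20 libraries, and its 6 groups overlapped. Its group means were 13.95 ± 4.52 (SD, n = 3) in the libraries labelled WT C3aR+ and 18.5 ± 5.44 in APP-KI C3aR+, 17.5 ± 2.09 in WT, 14.6 ± 2.00 in APP-KI, 18.9 ± 4.27 in C3aRKO and 14.5 ± 4.70 (SD, n = 5) in APP-KI;C3aRKO. The intervals of its difference ran from -0.37 to 1.16 in the C3aR+ comparison, from -0.89 to 0.61 in APP-KI against WT and from -1.17 to 0.17 in APP-KI;C3aRKO against C3aRKO. Pilra, the receptor that binds sialylated proteins, was 18.4, 18.4 and 18.9 in the libraries labelled WT C3aR+ and 25.6, 30.7 and 24.0 in APP-KI C3aR+. The C3aR+ groups did not overlap, and the log2 fold change of 0.50 (SE 0.22) missed the threshold (limma adjusted p = 0.12; DESeq2 adjusted p = 0.027). It was 21.1, 20.6 and 25.9 in WT, 18.1, 20.7 and 20.4 in APP-KI, 29.0, 29.4 and 21.8 in C3aRKO, and 19.1 to 28.3 (median 19.7) in APP-KI;C3aRKO, and the groups compared with each other overlapped. Its difference was -0.22 in APP-KI against WT (interval -0.75 to 0.31) and -0.26 in APP-KI;C3aRKO against C3aRKO (interval -0.73 to 0.21).

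**Figure D2:**
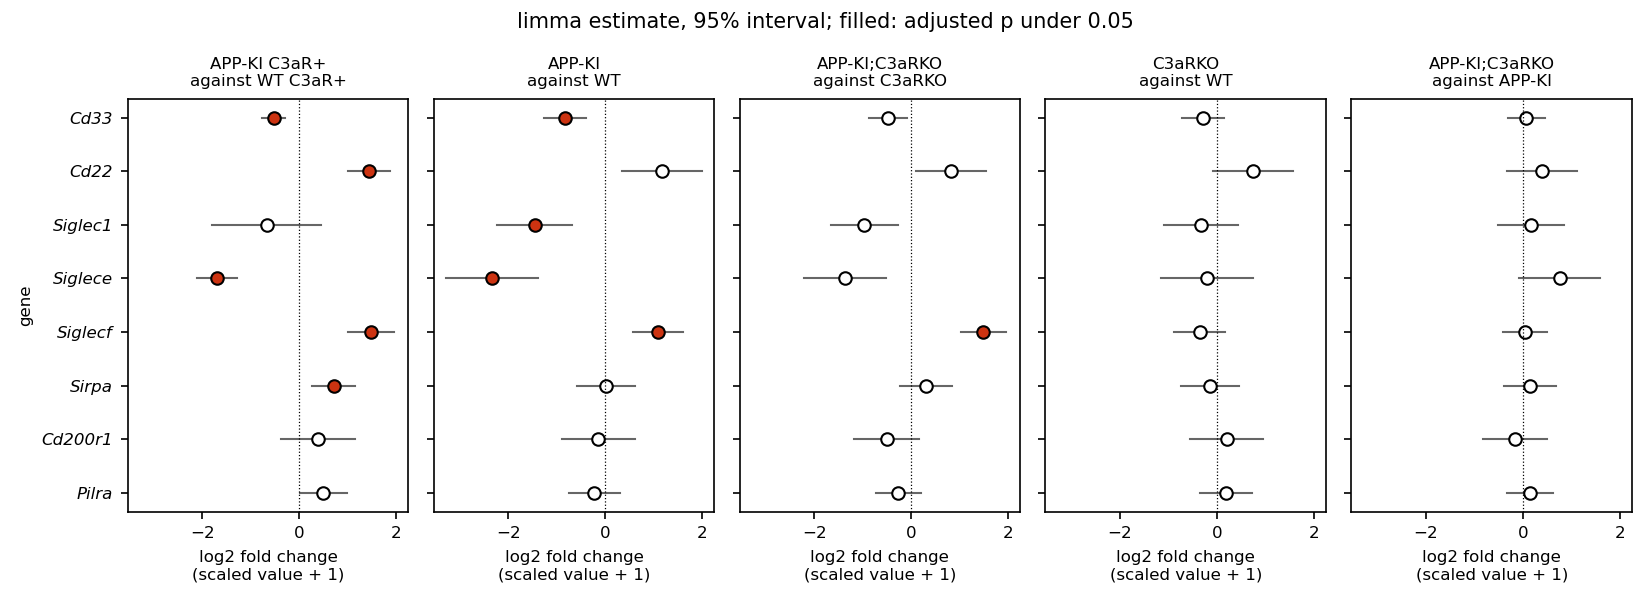
Points are limma log2 fold changes of log2(scaled value + 1) for the 8 genes, bars their 95% intervals, and filled points have an adjusted p under 0.05. Siglece lies left of 0 and Siglecf right of 0 in the 3 comparisons on the APP-KI allele, and no point is filled in the 2 comparisons on the C3ar1 deletion.

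Deletion of C3ar1 left no member past the threshold. In C3aRKO against WT 0 of 8 members were called (limma adjusted p = 0.995 for each; 0 with an unadjusted p under 0.05, 0 by edgeR and 0 by DESeq2), where limma called 0.00806% of all genes, C3ar1 alone, and DESeq2 called 0.0725%. Cd33 (-0.29), Siglecf (-0.36) and Sirpa (-0.13) were lower in all C3aRKO libraries than in all WT libraries, 3 of 8 members against 18.5% of all genes (9.16% higher and 9.31% lower). Their intervals reached from -0.72 to 0.14, from -0.88 to 0.16 and from -0.74 to 0.47. The difference of Cd22 was 0.75, with an interval from -0.07 to 1.56. It was 1.19 in library series 2, which holds C3aRKO 1 and C3aRKO 2, -0.12 in series 3 and -0.14 without the libraries that stood apart. Siglec1 (-0.33), Siglece (-0.20), Cd200r1 (0.20) and Pilra (0.19) overlapped between the groups. In APP-KI;C3aRKO against APP-KI 0 of 8 members were called as well (limma adjusted p = 0.998 for each; 0 with an unadjusted p under 0.05, 0 by edgeR and 0 by DESeq2), again beside 0.00806% of all genes, and all 8 overlapped, where 1.61% of all genes did not (0.604% higher and 1.01% lower). Siglece had the largest difference, 0.76, with an interval from -0.08 to 1.60. That difference was 1.31 in library series 2, which holds APP-KI 4, and 0.06 in series 3. For Cd22 the difference was 0.40 (interval -0.33 to 1.13), for Cd33 0.07 (-0.31 to 0.46), for Siglec1 0.17 (-0.52 to 0.85), for Siglecf 0.04 (-0.42 to 0.51), for Sirpa 0.15 (-0.38 to 0.69), for Cd200r1 -0.16 (-0.83 to 0.51) and for Pilra 0.15 (-0.32 to 0.62). The effect of the deletion was not found to differ between APP-KI and WT mice for any member (limma adjusted p = 0.998; 0 members with an unadjusted p under 0.05, 0 by edgeR and 0 by DESeq2), where 0% of all genes were called. The comparisons of this paragraph share the WT or the APP-KI libraries with APP-KI against WT.

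The C3aR+ and unselected libraries differ in the selection, in the Td-tomato allele, in library series and in depth at the same time, and these cannot be told apart. No member was called in the libraries labelled WT C3aR+ against WT (0 with an unadjusted p under 0.05) or in APP-KI C3aR+ against APP-KI (Cd22 and Pilra with an unadjusted p under 0.05), where limma called 0% of all genes. edgeR called 0 members in both. DESeq2 called 0 members and 0.0956% of genes in the former; in the latter it gave an adjusted p for only 3 members (Cd33, Siglecf and Sirpa) and 4290 genes, and called 0 of these members and 2.24% of the genes. Cd33, Siglece, Sirpa and Pilra were lower in every library labelled WT C3aR+ than in every WT library, 4 of 8 members against 23% of all genes (13.2% lower). Their fitted differences, which refer to the unselected libraries at the level of series 2, were -0.24, 0.09, -0.21 and -0.19. Pilra was higher in every APP-KI C3aR+ than in every APP-KI library, against 6.07% of all genes (1.86% higher). The APP-KI effect itself was compared between C3aR+ and unselected cells. The difference of effects was 0.74 for Sirpa (SE 0.35), 0.64 for Pilra (interval 0.04 to 1.24) and 0.57 for Cd200r1 (SE 0.43). It was 0.34 for Cd33 (-0.06 to 0.75), 0.45 for Siglecf (-0.27 to 1.17), 0.50 for Siglece (-0.82 to 1.83), 0.64 for Siglec1 (-1.06 to 2.35) and 0.19 for Cd22 (-0.68 to 1.07). None passed the threshold (limma adjusted p from 0.67 to 0.92; 1 with an unadjusted p under 0.05, 0 by edgeR and 0 by DESeq2), where limma called 0% of all genes and DESeq2 0.295%. Calls made in one selection and not in the other, such as Sirpa, were therefore not shown to differ between them.

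The unselected comparisons were also made within each library series, with all unselected libraries of that series in the fit. In APP-KI against WT, series 3 (WT 5, WT 6 and APP-KI 6) gave Cd33 -0.73, Cd22 1.47, Siglec1 -1.61, Siglece -1.82 and Siglecf 1.20. APP-KI 6 was alone in its group there and was assumed to vary like the WT and APP-KI;C3aRKO libraries. Series 2 (WT 4, APP-KI 4 and APP-KI 5) gave -1.004, 1.04, -1.02, -2.58 and 0.86 for the same genes, with the same signs. WT 4 was alone in its group there and was assumed to vary like the other groups. In APP-KI;C3aRKO against C3aRKO, series 3 gave Cd33 -0.61, Cd22 1.86, Siglec1 -0.88, Siglece -1.65 and Siglecf 1.59, with 1 C3aRKO library. Series 2 gave -0.40, 0.14, -0.88, -1.03 and 1.36 and called none. Cd22 was the member whose difference depended most on the series there: C3aRKO 1 and C3aRKO 2, both of series 2 and both standing apart, held 42.3 and 52.6 against 23.1 in C3aRKO 3. Without the 5 libraries that stood apart, this comparison gave Cd33 -0.60, Cd22 1.85, Siglece -1.56 and Siglecf 1.56. C3aRKO was then 1 library, assumed to vary like the other groups.

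**Figure D3:**
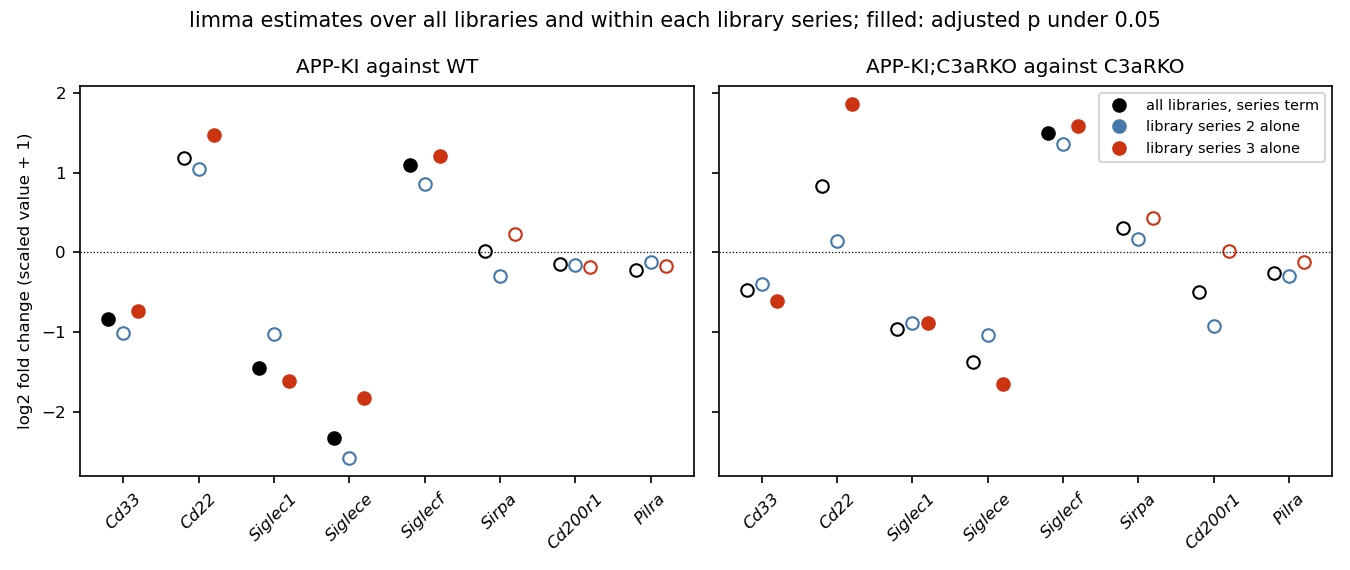
Points are limma log2 fold changes of the 8 genes over all unselected libraries with a series term (black), in library series 2 alone (blue) and in series 3 alone (red); filled points have an adjusted p under 0.05. Cd33, Cd22, Siglec1, Siglece and Siglecf keep their sign in both series, and the Cd22 point of the right panel moves from 0.14 in series 2 to 1.86 in series 3.

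Ligands and relatives of these receptors were read from lists of genes. Beside the counts in these lists, 13% of all genes were called higher and 9.7% lower in the C3aR+ comparison. These shares were 2.22% and 1.93% in APP-KI against WT, and 3.96% and 2.97% in APP-KI;C3aRKO against C3aRKO. Pianp, whose product is a ligand of PILRα, rose in all 3 comparisons on the APP-KI allele. Its scaled value was 3.89 to 5.63 in WT and 3.71 to 4.73 in the libraries labelled WT C3aR+, and 29.6 to 95.2 in APP-KI, 15.1 to 96.9 in APP-KI;C3aRKO and 43.7 to 154 in APP-KI C3aR+. The log2 fold change was 3.76 in the C3aR+ cells (SE 0.45, limma adjusted p = 0.00045), 3.66 in APP-KI against WT (SE 0.54, limma adjusted p = 0.00097) and 4.05 in APP-KI;C3aRKO against C3aRKO (SE 0.48, limma adjusted p = 9.4e-05). In C3aRKO it was 0.016 to 5.27. Pianp was the only one of 6 tested protein ligands called in the unselected comparisons. In the C3aR+ cells Cd52 (2.22), a small glycoprotein that binds a Siglec in humans, and Ptprc (0.92), a CD22 ligand, rose too. Cd47, the ligand of SIRPα, was not called in any of the 3, and Cd200, the ligand of CD200R1, was low in every group (mean scaled value 0.24 to 1.60).

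Among the activating or paired relatives, Tyrobp, the adaptor of many activating receptors, rose in all 3 comparisons (log2 fold change 1.95, 1.16 and 1.83). APP-KI and WT overlapped, since Tyrobp was 372 in APP-KI 4 and 338 to 422 in WT. Cd200r4, an activating relative of Cd200r1, was at 0 to 2.34 in the libraries without the APP-KI allele. It was at 11.3 to 33.0 in APP-KI C3aR+, 10.5 to 28.9 in APP-KI;C3aRKO, and 0.885 to 25.1 in APP-KI, where APP-KI 4 was below every WT library. It rose in the C3aR+ cells (3.50) and in APP-KI;C3aRKO against C3aRKO (3.38), and Hcst, another adaptor, rose in the C3aR+ cells (1.45). Siglech, a microglial Siglec that signals through Tyrobp, fell in all 3 comparisons (-0.52, -0.70 and -0.69). In counts, 3 of 6 tested relatives rose and 1 fell in the C3aR+ comparison (median log2 fold change 1.52), 1 of 7 rose and 1 fell in APP-KI against WT (median 0.12), and 2 of 7 rose and 1 fell in APP-KI;C3aRKO against C3aRKO (median 1.23). Of 3 other Siglecs tested, Siglech among them, 2 fell in the C3aR+ cells and 1 in each unselected comparison. Siglecg, an inhibitory Siglec of B cells, fell in the C3aR+ cells (-2.13), from scaled values of 5.02 to 9.42 in the libraries labelled WT C3aR+ to 0.393 to 1.30 in APP-KI C3aR+.

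Of 15 effectors that act downstream of inhibitory motifs, 1 rose and 3 fell in the C3aR+ comparison, where 13% of all genes rose and 9.7% fell. In the unselected comparisons on the APP-KI allele 3 and 2 fell, where 1.93% and 2.97% of all genes fell. Dok3, an inhibitory adaptor, fell in all 3 (-1.67, -1.57 and -2.06), while Ptpn6, the phosphatase recruited by the inhibitory motifs, rose in the C3aR+ cells (0.51). Csk, a kinase that restrains Src kinases, fell in the C3aR+ cells (-0.38) and in APP-KI against WT (-0.64). Lyn, a kinase that phosphorylates inhibitory motifs, fell in both unselected comparisons (-0.64 and -0.52). Cbl, a ubiquitin ligase, fell in the C3aR+ cells (-0.39). The list's median was -0.18, -0.21 and -0.14, beside the medians of all genes given above. In the sialic acid pathway, St8sia6, a sialyltransferase, rose in all 3 comparisons (2.83, 2.30 and 3.24), from 30.5 to 46.3 in the libraries labelled WT C3aR+ to 208 to 344 in APP-KI C3aR+. St3gal5, the enzyme that makes the ganglioside GM3, fell in the C3aR+ cells (-0.72) and in APP-KI against WT (-1.16), and St3gal6 fell in APP-KI;C3aRKO against C3aRKO (-0.56). In all, 3 of 20 tested genes rose and 3 fell in the C3aR+ cells, and 1 rose and 1 fell in each unselected comparison. Among 22 other inhibitory surface receptors, 11 rose and 6 fell in the C3aR+ comparison (median 0.95), 1 rose and 2 fell in APP-KI against WT (median 0.19), and 3 rose and 2 fell in APP-KI;C3aRKO against C3aRKO (median -0.10). The largest changes in the C3aR+ cells were those of Pdcd1 (3.65), which encodes PD-1, Cd5 (2.58), a lymphocyte receptor, Cd300lf (2.32), a lipid receptor, and Pecam1 (-2.09), an adhesion molecule. Cd5 (2.96), Ceacam1 (-1.28) and Cd300a (-0.91) were the genes called in APP-KI against WT, and Pdcd1 (3.83), Clec4a2 (-2.10), Cd5 (1.73) and Ceacam1 (-1.09) led in APP-KI;C3aRKO against C3aRKO. No gene of these 6 lists was called in the comparisons on the C3ar1 deletion.

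**Figure D4:**
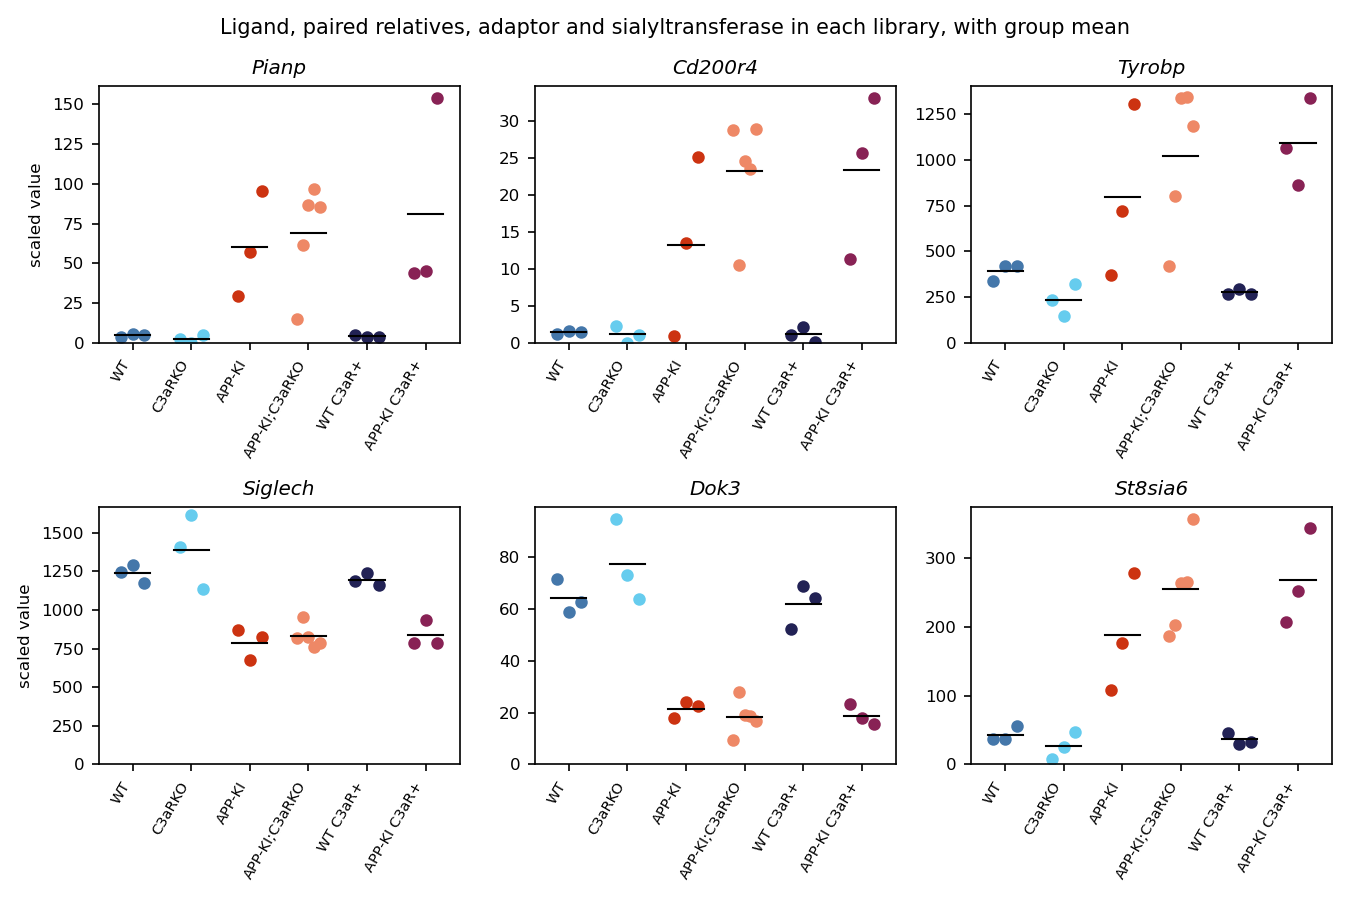
Panels plot the scaled value (linear axis from 0) of a PILRα ligand (Pianp), a paired relative of Cd200r1 (Cd200r4), an adaptor (Tyrobp), a microglial Siglec (Siglech), an inhibitory adaptor (Dok3) and a sialyltransferase (St8sia6) in each library, with lines at group means. Pianp lies between 15.1 and 154 in the libraries with the APP-KI allele and no higher than 5.63 in those without it.

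Some members also mark other cells, so marker lists were read in the same libraries. The cells were sorted as CD45mid CD11b+, per the study's methods, and how many cells of other types passed this gate was not tested. In a bulk sample, fewer cells of a type and less RNA per cell cannot be told apart. The summed scaled value of 10 border macrophage markers was 1573 to 3028 in the 9 libraries without the APP-KI allele and 588 to 1012 in the 11 with it, so it moved with Siglec1, and its part in the Siglec1 difference was not tested. All 10 were detected in every group, among them Mrc1 at 79.7 to 639. In the C3aR+ comparison 6 of the 10 fell, and in each unselected comparison on the APP-KI allele 3 of the 10 did. Of all genes, 9.7% fell in the C3aR+ comparison, 1.93% in APP-KI against WT and 2.97% in APP-KI;C3aRKO against C3aRKO. The 7 listed B cell markers summed to 8.35 to 16.1 in the libraries labelled WT C3aR+ and 2.65 to 15.8 in APP-KI C3aR+, where Cd22 was higher, and 3 of the 7 were at 0 reads in each of these groups. In the unselected groups the sum was 8.49 to 10.6 in WT, 5.61 to 37.7 in APP-KI, 11.7 to 80.2 in C3aRKO and 5.67 to 30.9 in APP-KI;C3aRKO. The highest sum, in C3aRKO 2, went with the highest Cd22 of its group, and APP-KI;C3aRKO 5, with the highest Cd22 of all (99.0), had a sum of 6.52. What part B cells had in the Cd22 differences was not tested. The 6 eosinophil markers summed to 2.44 to 3.17 in APP-KI C3aR+ and 3.95 to 15.9 in the libraries labelled WT C3aR+, and to 0.759 to 8.42 in APP-KI and 7.41 to 10.4 in WT, so they were lower or overlapping where Siglecf was higher. Of these 6, 2 were at 0 reads in APP-KI C3aR+. The microglia markers were lower with the APP-KI allele too: 5 of 10 fell in the C3aR+ comparison, 2 in APP-KI against WT and 1 in APP-KI;C3aRKO against C3aRKO. The sum of 6 endothelial markers was 45.7 to 91.8 without the allele and 78.7 to 326 with it. Flt1 was the highest of them, with a median of 110 over all libraries and up to 314. Pecam1, of the same list, had a mean of 12.7 in APP-KI against 34.3 in WT, and of 8.80 in APP-KI;C3aRKO against 32.4 in C3aRKO. It was 6.64 in APP-KI C3aR+ against 31.5 in the libraries labelled WT C3aR+. Of 5 markers tested, 1 was higher in each of the 3 comparisons and 1 lower in the C3aR+ cells. Neutrophil markers summed to 38.8 to 743 in WT and 7.17 to 215 in APP-KI, and the groups overlapped in all 3 comparisons. Sums of T and NK cell markers were 1.38 to 1.99 in WT, 3.09 to 63.4 in APP-KI, 5.75 to 50.5 in C3aRKO and 0.565 to 32.4 in APP-KI;C3aRKO. What part these markers had in the members' differences was not tested.

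**Figure D5:**
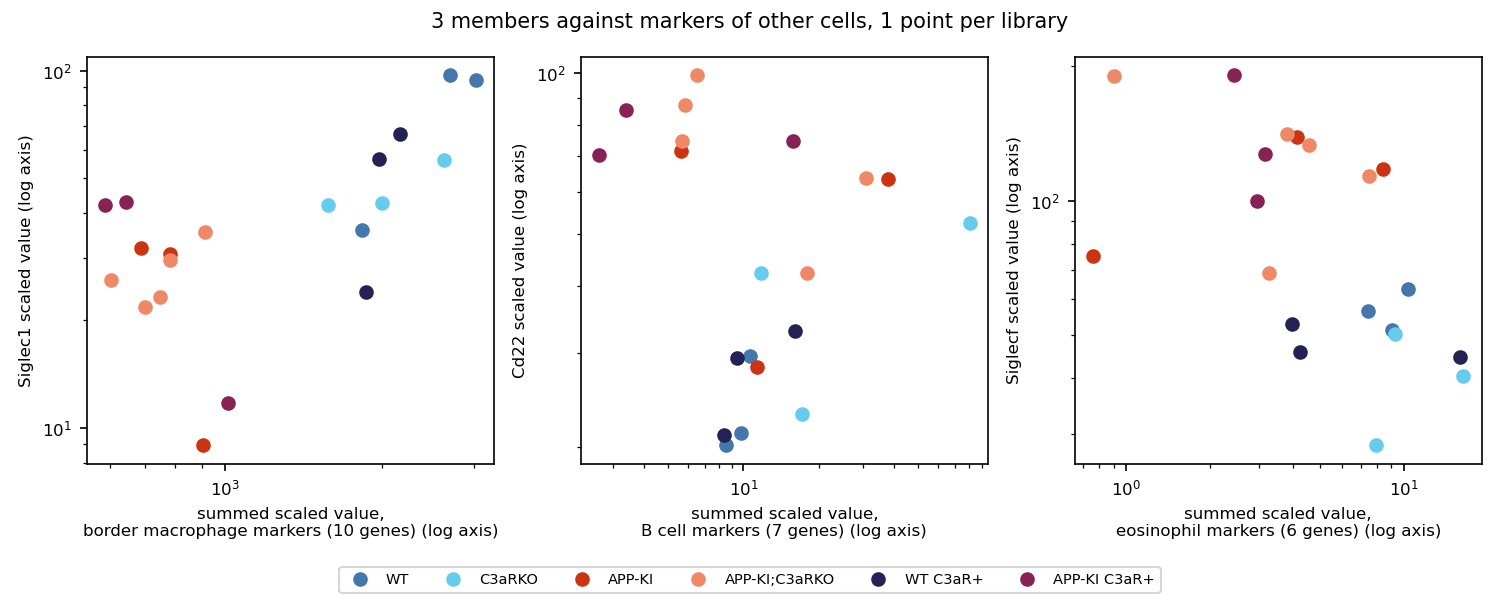
Each point is a library, with the summed scaled value of a marker list on the x axis and a member's scaled value on the y axis (both log axes), coloured by group. The libraries with the APP-KI allele lie at low border macrophage sums (588 to 1012) and at Siglec1 values of 8.94 to 42.9, and at Siglecf values of 68.7 to 191 with eosinophil sums of 0.759 to 8.42, while in the Cd22 panel APP-KI 4 lies among the WT libraries.

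The genes whose levels followed each member most closely over the 20 libraries were found by Pearson's r of log2(scaled value + 1) among the 10133 genes whose mean over all libraries was 5 or more. The libraries share the groups and the scaling, so r is a description only. Cd33 ran with Sall1, a microglial transcription factor (r = 0.983), and Acp2, a lysosomal phosphatase (0.977). Siglece ran with Lfng, a modifier of Notch receptors (0.982), and Sema4b (0.977). Siglecf ran with Cpd, a carboxypeptidase (0.971), and Ephx1, an epoxide hydrolase (0.971). Sirpa ran with Arf3 (0.975). Cd22 ran with Pabpc1, a poly(A)-binding protein (0.931), and Vat1 (0.914). The likeness was lower for Siglec1, with Lyn (0.836) and Mgl2, a lectin of macrophages (0.829), and for Pilra, with R3hcc1 (0.755) and Flna (0.751). Cd200r1 ran with Timm10 (0.914) and Natd1 (0.869).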

How the data were processed

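RNA of microglia from 20 libraries was prepared by the authors with a total RNA kit that adds molecular identifiers; whether these were used, and the strand setting, are not given in the sources used here. Reads were aligned with TopHat to mm10 (the build also called GRCm38), per the study's methods, and the submitters' processing notes name cutadapt, TopHat2, featureCounts and DESeq2. The deposited values are named FPKM, but in all 20 libraries they were a signal, the read count divided by the library's 75th percentile, since 100% of values gave whole reads (tolerance 0.01) and no gene length entered. They were multiplied by 35.2031 for scaled values, in place of the FPKM the design had assumed. Of 21326 rows, 11 repeats of a symbol were left out.

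Genes whose mean over the libraries of a fit was 1 or more were tested with limma 3.58.1 (R 4.3.3) with a trend on log2(scaled value + 1), a pseudocount of 1 that understates changes of low genes, and Benjamini-Hochberg adjustment, called at 0.05. The C3aR+ libraries were fitted alone, the 14 unselected libraries together with a library series term, and the C3aR+ and unselected WT and APP-KI libraries together with that term. Intervals are 95%. Alternatives were edgeR 4.0.16 and DESeq2 1.42.0 on the recovered reads, other scalings, filters and pseudocounts, and leaving out libraries. The method was tested on simulated data. For APP-KI against WT it called 12% of genes set to a fold of 0.5 and 22% of those set to 2. At folds of 0.25 and 4 it called 56.25% and 58%. For the C3aR+ comparison these shares were 33.33%, 56%, 60.42% and 74%. Many true changes of these sizes would thus be missed. The comparisons on the C3ar1 deletion were not simulated. No 2 libraries of a group were duplicates (25 pairs). The members, gene lists and tests were chosen with earlier results of these data known. Named genes were all members, C3ar1, the 2 genes most like each member (1 of them is not reported here), and in each list up to 4 called genes with the largest change.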

Additional observations from a re-analysis of the deposited data

Results flagged for a closer look

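In APP-KI;C3aRKO, the group of 5 libraries and the only one large enough to test, 3 of 8 members had a library far from the others by Dixon's gap ratio (95% critical value 0.71); chance flags about 1 in 20 such groups. APP-KI;C3aRKO 2 had the highest Siglece (31.0, gap ratio 0.717) and the highest Pilra (28.3, gap ratio 0.769). APP-KI;C3aRKO 1, which stood apart by its genes without a read, had the lowest Cd200r1 (6.29, gap ratio 0.782). No difference between the effects in C3aR+ and unselected cells, or in APP-KI and WT mice, passed its test for a member.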

How the results depend on the processing

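The differences of Siglece and Siglecf kept their sign under every alternative run in the 3 comparisons on the APP-KI allele. The number of members called was less stable. The share of all genes called under each setting is not given beside it, so its changes are no result about the members. In APP-KI;C3aRKO against C3aRKO, DESeq2 called 9.21% of all genes where limma called 6.93%. Counts of fits that left C3aRKO as 1 library, in series 3 alone or without the libraries that stood apart, are left out. In APP-KI;C3aRKO against C3aRKO, where 1 member was called, the number was 2 with a pseudocount of 5, a filter at a mean of 5 or quantile normalization. It was also 2 with DESeq2 or only the 2 groups, and 0 in series 2 alone or at an adjusted p under 0.0005. In APP-KI against WT, where 4 were called, it was 2 with no filter, 1 with limma without a trend, and 0 with only the 2 groups, in series 2 alone or at an adjusted p under 0.0005, where the C3aR+ comparison kept 1 of 5. Leaving out 1 library gave 1 to 3 members in APP-KI against WT (1 without WT 5, WT 6 or APP-KI 6, 2 without WT 4) and 1 to 2 in APP-KI;C3aRKO against C3aRKO (2 without APP-KI;C3aRKO 2). The cause was not tested.

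Some differences that were not called changed sign. In APP-KI against WT, Sirpa was -0.11 without the series term, -0.029 with only the 2 groups, -0.29 in series 2 and -0.10 to 0.23 with 1 library left out. In C3aRKO against WT, Siglec1 was 0.24 in series 2, and Cd22, Cd200r1 and Pilra were -0.12, -0.13 and -0.082 in series 3. Without the libraries that stood apart Cd22, Siglece and Cd200r1 were -0.14, 0.020 and -0.11, and with 1 library left out Sirpa was -0.29 to 0.076 and Cd200r1 -0.012 to 0.47. In APP-KI;C3aRKO against APP-KI, quantile normalization gave Cd33 -0.0062 and Siglecf -0.0010, series 2 gave Siglecf -0.087, series 3 gave Siglec1 -0.030, Cd200r1 0.067 and Pilra -0.029, and leaving out the libraries that stood apart gave Cd200r1 0.079. With 1 library left out, Cd33 was -0.068 to 0.21, Siglec1 -0.27 to 0.56, Siglecf -0.11 to 0.22, Sirpa -0.011 to 0.31 and Cd200r1 -0.28 to 0.14. Cd200r1 in APP-KI;C3aRKO against C3aRKO was 0.013 in series 3 and 0.025 without the libraries that stood apart. The difference of the APP-KI effect by selection was -0.022 for Cd22 without those libraries, and with 1 library left out -0.080 to 0.41 for Cd22 and -0.028 to 0.93 for Siglece.

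Whether replicate numbers pair the libraries is not given in the sources used here. Deviations of same-numbered libraries correlated at -0.01 to 0.04 in the C3aR+ cells, 0.09 to 0.25 in APP-KI against WT, -0.29 to 0.01 in APP-KI;C3aRKO against APP-KI and -0.00 to 0.22 in APP-KI;C3aRKO against C3aRKO. So few libraries, some of the same series and some not, cannot settle whether they are paired. With the replicate number as a block, 4, 5, 1 and 1 members were called in these comparisons. The 1 in APP-KI;C3aRKO against APP-KI was Cd22 (1.11), Cd200r1 there was 0.29, and Sirpa in APP-KI against WT was -0.11. The block took the place of the series term, and the share of all genes called with it is not given beside the counts of members. In APP-KI against WT, replicate 5 joins WT 5 of series 3 with APP-KI 5 of series 2, so the series enters that difference too. Only replicates 4 and 5 are in both APP-KI and APP-KI;C3aRKO, from series 2 in the former and series 3 in the latter. The deletion and the series therefore cannot be told apart in that fit, which also rests on APP-KI 4, a library that stood apart.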
